A study of Homo sapiens with 36 samples.

Results

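The nuclear oxidative phosphorylation genes encode the subunits of the respiratory chain and of the ATP synthase that are made from nuclear DNA. Their adenosine methylation was followed here in libraries in which PCIF1 was depleted by siRNA (siPcif1) and in control libraries (siScram). Members were taken by name: every listed site whose gene symbol starts with NDUF, UQCR or ATP5, is COX followed by a number of 4 to 8, or is CYC1, SDHA, SDHB, SDHC or SDHD. This gave 749 sites at 501 distinct positions in 83 genes, of 100897 sites at 82971 positions in 9343 genes over 3 tables. The HEK293T table held 374 of them in all 83 genes, among 57011 sites. The table of BE(2)-C cells without ATRA held 230 in 67 genes, among 22855 sites, and the table of BE(2)-C cells with ATRA 145 in 66 genes, among 21031 sites. The names also brought in the complex I assembly factors (NDUFAF1 and its kin), the read-through transcripts NDUFC2-KCTD14 and ATP5J2-PTCD1, the UQCRH copy UQCRHL, and ATP5S and ATP5SL, which RefSeq names DMAC2L and DMAC2. In the results by complex, these 5 genes and the assembly factors were kept apart from the subunits. Counts and medians over all members include them. NDUFA4 was placed with complex IV, where RefSeq now names it COXFA4. UQCRH and UQCRHL are near-identical, so the split of reads between them is uncertain.

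PCIF1 methylates the N6 position of a 2′-O-methylated adenosine directly after the mRNA cap, giving m6Am. Internal m6A, by contrast, is written by the METTL3 complex in the DRACH motif, in which D is A, G or T, R is a purine and H is any base but G. The m6ACE assay crosslinks an m6A antibody to RNA and maps both marks to single bases where exonuclease digestion stops at the crosslinked base. Complexes I to IV of the inner mitochondrial membrane pass electrons to oxygen and, except complex II, pump protons, and complex V uses the proton gradient to make ATP. Their nuclear mRNAs are capped in the nucleus, whereas the subunits encoded in mitochondrial DNA come from mRNAs that carry no such cap.

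Each context had 3 siPcif1 and 3 siScram m6ACE libraries, all from wild-type cells, with a 24 h siRNA treatment. The contexts were HEK293T, a human embryonic kidney line, BE(2)-C, a human neuroblastoma line, without all-trans retinoic acid (ATRA), and BE(2)-C with 10 uM ATRA for 4 days. The labels repeat 1 protocol text written for BE(2)-C on every sample and describe HEK293T as neuroblastoma, and of the untreated BE(2)-C cells they say only that ATRA was absent, whereas the table's name reads DMSO. Of 10 sympathoadrenal markers, GATA3 and ISL1 had a listed site in the HEK293T table, against 9 in each BE(2)-C table. Of 6 kidney-line markers, 3 had a site in the HEK293T table and 0 in either BE(2)-C table. Values are the authors' relative methylation level (RML), a ratio per site and library. Neither labels nor headers state its formula, so the depth behind each value is unknown. The tables hold no RNA levels, so the depletion of PCIF1 mRNA was not analysed here. Because the scaling between the 3 tables is unknown, levels were compared within a table. Each change is siPcif1 minus siScram of log2 RML with a small constant added. Nothing in the labels says that replicates came from separate cultures, so p-values measure only the spread between these samples.

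The 5′UTR sites that carried much of the signal sat at or near the annotated transcript start. The following 11 stretches, each 25 bases from RefSeq (GRCh38.p14) and 5′ to 3′ on the gene's strand, are shown because the results below turn on these sites. Capitals mark the 5-base motif of the deposited tables, and its middle A is the methylated base. Complex I is represented by NDUFV2 (chr18:9102687-9102711, plus strand), NDUFB4 (chr3:120596320-120596344, plus), NDUFA7 (chr19:8321363-8321387, minus), NDUFS1 (chr2:206159432-206159456, minus), NDUFS4 (chr5:53560627-53560651, plus) and NDUFA6 (chr22:42090750-42090774, minus). Complex II is represented by SDHA (chr5:218312-218336, plus) and SDHB (chr1:17054017-17054041, minus), complex III by UQCR11 (chr19:1605450-1605474, minus), and complex IV by COX6A1 (chr12:120438101-120438125, plus) and COX8A (chr11:63974608-63974632, plus).
NDUFV2: ggcgcgctcgGGATTctcgcctggc
NDUFB4: tcagaatcgcGCAGGcgcaattgtg
NDUFA7: gctgcgccctTCAGTatcgcggacg
NDUFS1: ggcccggctgACAGAgttagccgag
NDUFS4: atccgtccttTCATCctggcgtttg
NDUFA6: gtggggttgtGGAGTggatgctttg
SDHA: gtctgcgcagGGACTggcgggactg
SDHB: ggggctgacgTCAGGagccaagatg
UQCR11: ccgcgcctgcGCAGTgtagccgggt
COX6A1: cggcgctgcgGCAGTccagatcaaa
COX8A: gccagcgcagCCATTttggcttcct
The methylated A was the annotated start base itself in NDUFV2, NDUFA7, NDUFS1, NDUFS4, UQCR11, COX6A1 and COX8A. It lay 3 nt downstream of the start in SDHB, 4 nt downstream in SDHA, 10 nt downstream in NDUFA6 and 4 nt upstream in NDUFB4. In the RefSeq promoter windows, 245 distinct member positions could be looked up, and the reference letters matched the deposited motif at all 245. The A was preceded by C in NDUFB4, NDUFA7, NDUFS1, NDUFS4, SDHB, UQCR11, COX6A1 and COX8A and by G in NDUFV2, NDUFA6 and SDHA. Among these 11, the motif met DRACH in SDHA alone.

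Member sites were more often in the 5′UTR than the sites of each table as a whole. In HEK293T, 288 of the 374 member sites (77.0%) were in the 5′UTR, against 21.7% of all sites. The share was 71.0% with ATRA and 50% without ATRA in BE(2)-C, where 10.0% and 9.39% of all sites were in the 5′UTR. Of the internal member sites (coding and 3′UTR), 30 of 83 met DRACH in HEK293T, where 23952 of 39747 did over all genes. In BE(2)-C it was 7 of 115 without ATRA (4378 of 19492 over all genes) and 6 of 42 with ATRA (4390 of 17723). The preceding base of the 288 HEK293T 5′UTR sites was C at 173 (60.1%), G at 57, T at 52 and A at 6, close to the 58.4% with C among all 5′UTR sites.

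In HEK293T, the 5′UTR sites of the oxidative phosphorylation genes were lower after PCIF1 depletion and the internal sites were not. The median RML over the 288 member 5′UTR sites was 1.80, 2.13 and 2.56 in the siPcif1 libraries, against 3.22, 3.24 and 3.41 in the siScram libraries. The 2 groups of libraries did not overlap. The median change was -0.57, beside -0.65 over all 12374 5′UTR sites, and 251 of the 288 changes were negative (86.1% of all 5′UTR sites had a negative change). All 3 siPcif1 libraries were below all 3 siScram libraries at 130 sites (45.1%, where 32.9% of all 5′UTR sites were so), and the reverse held at 0 (0.937% of all). No member site passed limma's test with Benjamini-Hochberg adjustment over the whole table, nor did any of the 57011 sites (0% called). The smallest adjusted p among members was 0.158 by limma, and 87 of the 288 were lower with an unadjusted p of at most 0.05 and 0 higher, as were 30.3% and 0.42% of all 5′UTR sites. Over the 83 internal sites the library medians were 0.510, 0.448 and 0.491 in siPcif1 and 0.509, 0.495 and 0.438 in siScram, which overlapped. The median internal change was 0.03 (0.01 over all 39747 internal sites), with 5 sites lower and 4 higher without overlap (5.4% and 6.14% of all internal sites). Member internal sites had low levels, with a median RML of 0.459 in siPcif1 and 0.445 in siScram, against 1.96 and 1.93 over all internal sites.

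**Figure D1:**
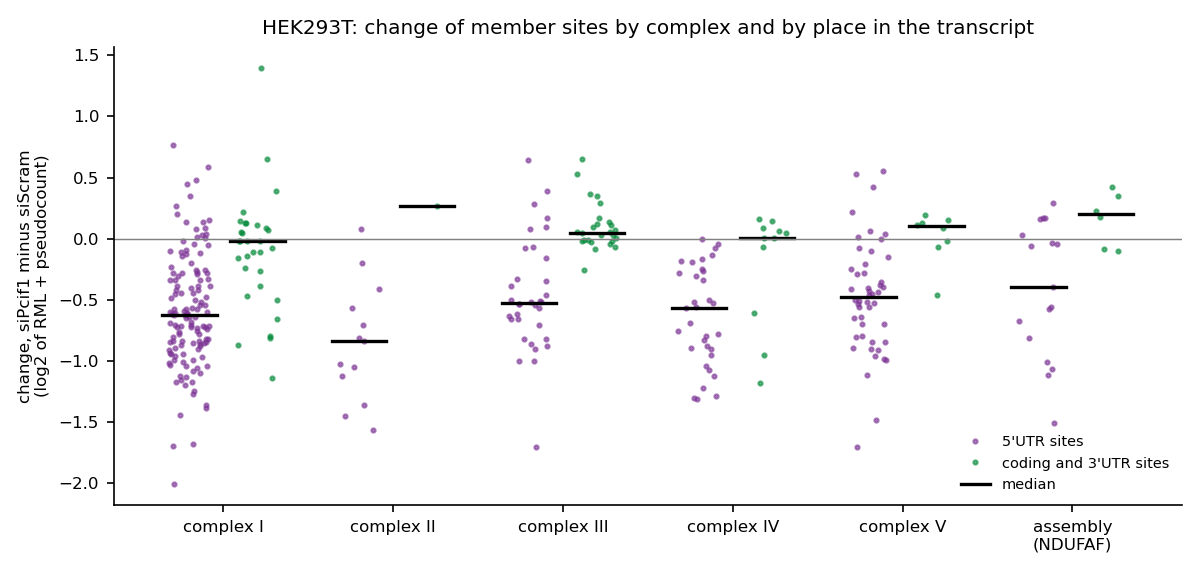
Change in HEK293T (siPcif1 minus siScram, log2 RML, vertical axis) of member sites of complexes I to V and of the assembly factors, with 5′UTR and internal sites apart; each point is a site and bars mark medians. The 5′UTR medians of complexes I to V lie between -0.83 and -0.48.

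Each of the 5 complexes had a negative 5′UTR median in HEK293T. It was -0.63 for complex I (131 sites in 32 genes), -0.83 for complex II (13 sites, 4 genes) and -0.53 for complex III (34 sites, 9 genes). It was -0.57 for complex IV (33 sites, 11 genes), -0.48 for complex V (48 sites, 13 genes) and -0.39 for the assembly factors (17 sites, 5 genes). Sites lower without overlap numbered 62 of 131 in complex I (47.3%) and 7 of 13 in complex II (53.8%). They numbered 13 of 34 in complex III (38.2%), 20 of 33 in complex IV (60.6%) and 20 of 48 in complex V (41.7%). In the assembly factors it was 4 of 17 (23.5%), and over all 5′UTR sites of the table the share was 32.9%. Of the 17 assembly-factor sites, 11 were of NDUFAF3. With 1 value a gene over non-DRACH 5′UTR sites, relative to internal DRACH sites, the assembly factors had a median of -0.81 (5 genes). On that scale complexes I to V had -0.66, -0.74, -0.57, -0.60 and -0.55, so the ranking by site did not hold by gene. Sites of 1 gene share its transcripts and are not independent, and differences between complexes were not tested.

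Complex I, the NADH dehydrogenase that feeds electrons from NADH into the chain, held the site with the largest negative change among members. NDUFV2, an iron-sulphur subunit of the NADH-binding arm, had RML of 1.71, 3.14 and 2.84 in siPcif1, against 11.7, 9.36 and 11.8 in siScram at its start (change -2.01 ± 0.41 SE, limma adjusted p = 0.158). Its siPcif1 libraries lay far below all siScram libraries. NDUFB4, an accessory subunit of the membrane arm, had 0.925, 1.31 and 1.02 in siPcif1 and 3.23, 5.08 and 4.33 in siScram at position 120596332 of chromosome 3 (change -1.69). These 2 sites and one of NDUFC1, a small membrane-arm subunit (change -1.39), had the smallest p in complex I. NDUFB10, another membrane-arm accessory subunit, had 1.04, 0.938 and 1.68 in siPcif1 and 2.81, 4.50 and 3.42 in siScram at a GGACC site 24 nt past the start (change -1.36). NDUFS4, an accessory subunit of the hydrophilic arm, reached 16.9, 16.4 and 17.5 in siPcif1, against 31.0, 28.5 and 32.0 in siScram. At this start site the replicates of each group were close together and the groups did not overlap (change -0.84).

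The strongest 5′UTR site of NDUFA7, an accessory subunit, had RML of 15.0, 24.8 and 27.9 in siPcif1 and 49.4, 38.3 and 39.8 in siScram (change -0.94), again without overlap. Of the 131 complex I 5′UTR sites 115 had a negative change, though many overlapped between groups. NDUFS1, the largest iron-sulphur subunit, had 2.57, 2.99 and 0.357 in siPcif1, against 1.02, 0.759 and 1.46 in siScram at its start, and these overlapped (change 0.45). A second NDUFA7 site, at position 8321406 of chromosome 19, had 1.84, 1.94 and 16.2 in siPcif1 and 2.75, 1.52 and 2.63 in siScram. Its change of 0.76 rested on siPcif1 replicate 3 and was -0.21 without that library. NDUFA13, an accessory subunit also known as GRIM-19, did not separate the groups at a site 11 nt upstream of the start, with 15.4, 24.7 and 19.0 in siPcif1 and 15.3, 25.4 and 18.4 in siScram.

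Complex II, succinate dehydrogenase, also belongs to the citric acid cycle. SDHA, its flavin-bearing catalytic subunit, had RML of 9.31, 8.81 and 8.62 in siPcif1, against 20.7, 30.7 and 30.7 in siScram at position 218324 of chromosome 5 (change -1.57). The siPcif1 libraries were nearly equal and far below siScram. This DRACH-type site lies 4 nt past the start, and the neighbouring site at position 218333 had 0.541, 0.658 and 0.468 in siPcif1 and 1.62, 2.28 and 2.24 in siScram (change -1.45). SDHB, the iron-sulphur subunit, had 4.70, 5.61 and 11.7 in siPcif1 and 18.6, 17.7 and 17.3 in siScram 3 nt past its start (change -1.36). SDHC, a membrane anchor with cytochrome b, showed a smaller difference at its strongest site, with 16.6, 30.0 and 36.7 in siPcif1 and 45.0, 31.1 and 31.1 in siScram. Those SDHC groups overlapped (change -0.41). The other anchor, SDHD, had a gene-level change of 0.07, given with the gene-level results.

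In complex III, the cytochrome bc1 complex, UQCR11, a small subunit, carried the best-separated strong site. It had RML of 14.7, 16 and 21.1 in siPcif1, against 33.8, 33.0 and 29.8 in siScram at its start (change -0.90), without overlap. CYC1, the cytochrome c1 subunit, had 2.69, 1.44 and 2.12 in siPcif1 and 6.61, 9.36 and 6.14 in siScram at a CCAGG site 16 nt upstream of the start (change -1.70). A weaker CYC1 site, CCAAG 21 nt past the start, differed by -0.82. UQCRFS1, the Rieske iron-sulphur protein, had 1.65, 1.52 and 1.75 in siPcif1 and 3.43, 4.55 and 2.92 in siScram (change -1.0). The sites given with library values in these 3 genes separated the groups completely. They were named for a small p or a high level, or after their values were seen. Of all 34 complex III 5′UTR sites, 13 (38.2%) did so.

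Complex IV, cytochrome c oxidase, holds the oxygen-reducing step. NDUFA4, now counted as a subunit of this complex, had RML of 5.88, 6.43 and 4.51 in siPcif1 and 13.7, 14.7 and 14.0 in siScram at a TCAGG site (change -1.30). COX8A, a small structural subunit, had 1.27, 3.12 and 2.04 in siPcif1, against 4.78, 4.48 and 5.01 in siScram (change -1.12). COX6B1, which faces the intermembrane space, had 0.653, 1.08 and 0.454 in siPcif1 and 2.18, 2.09 and 2.10 in siScram at a TCAGC site (change -1.28). These 3 did not overlap between groups. COX6A1, a regulatory subunit, held the strongest site of this complex and did overlap, with 31.0, 26.6 and 35.5 in siPcif1 and 34.0, 37.6 and 39.7 in siScram (change -0.26).

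In complex V, ATP5I (RefSeq ATP5ME), a subunit of the membrane part, had RML of 0.267, 0.224 and 0.450 in siPcif1 and 0.693, 1.71 and 3.51 in siScram at position 674320 of chromosome 4 (change -1.70). ATP5G3 (ATP5MC3), 1 of the genes for the proton-carrying c subunit, had 12.5, 17.3 and 17 in siPcif1 and 26.8, 25.6 and 20.9 in siScram (change -0.64). Both separated the groups, at levels far apart. ATP5B (ATP5F1B), the catalytic beta subunit, had 14.9, 13.5 and 18.7 in siPcif1 and 26.2, 25.4 and 18.3 in siScram at its TCAGT start site (change -0.56), and these overlapped at a single library. ATP5O (ATP5PO), part of the stalk that holds the catalytic head, differed by -0.64 at a weaker site. ATP5G1 (ATP5MC1), another c subunit gene, had 9 5′UTR sites, whose changes ran between -1.48 and 0.53. Among the assembly factors, NDUFAF2 had 4.65, 6.28 and 4.16 in siPcif1 and 8.28, 12.3 and 12 in siScram 3 nt upstream of its start (change -1.06). It acts late in the building of complex I.

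**Figure D2:**
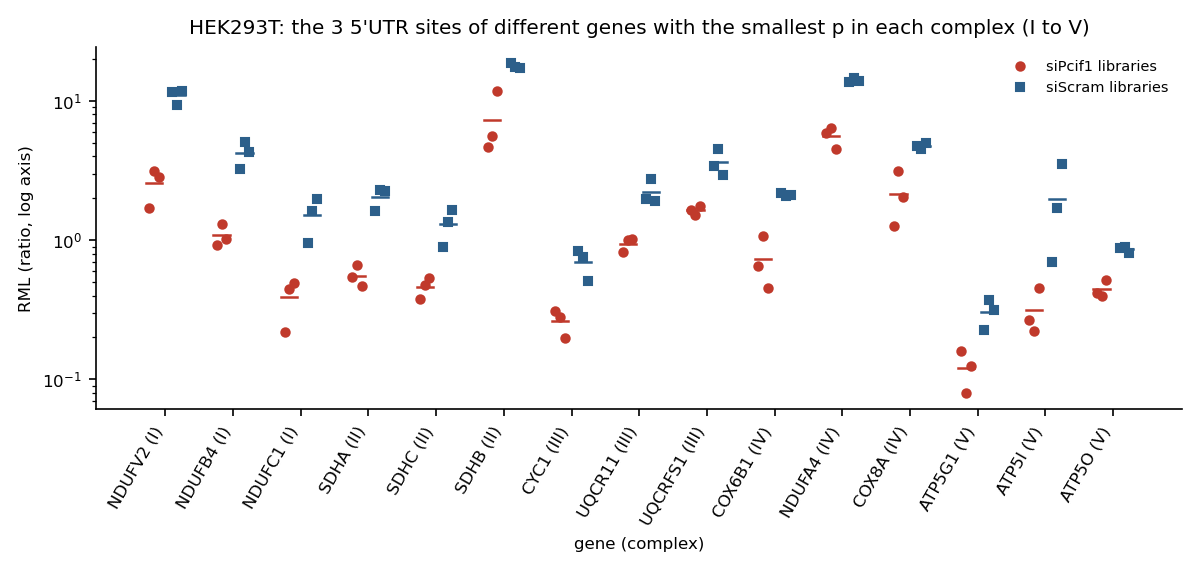
RML in each of the 6 HEK293T libraries (log axis) at the 3 5′UTR sites of different genes with the smallest p in each of complexes I to V, with siPcif1 circles left of siScram squares and bars at group means. All siPcif1 points lie below all siScram points at each of these sites, which were chosen by their p (NDUFV2: 1.71 to 3.14 in siPcif1, 9.36 to 11.8 in siScram).

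From the annotated start base to 50 nt past it, median levels fell with distance. The 23 HEK293T sites on the start base had a median RML of 6.97 in siPcif1, against 13.9 in siScram, and a median change of -0.84. The 40 sites 1 to 10 nt past the start had 3.28 in siPcif1 and 5.40 in siScram (change -0.71). The 96 sites 11 to 50 nt past it had 0.877 in siPcif1 and 1.68 in siScram (change -0.57). Over all genes, siScram medians were 9.45 on the start base, 6.84 at 1 to 10 nt and 2.87 at 11 to 50 nt. The 34 member sites beyond 100 nt had 1.9 in siPcif1 and 2.7 in siScram, and those 1 to 100 nt upstream had 3.90 and 4.42. The share of sites lower without overlap was 47.8% on the start base and 62.5% at 11 to 50 nt, against 32.9% and 43.9% over all 5′UTR sites at these distances. The 86 member sites 1 to 100 nt upstream of the start changed by a median of -0.34, against -0.73 over all such sites, and 24 of them (27.9%) did not overlap, close to the 28.7% of all such sites. In 36 of the 79 genes with a 5′UTR site the one with the highest siScram level lay within 10 nt of the start, and in 16 it was the start base. The small constant added to RML (0.298 in HEK293T) understates changes at low levels, such as those 11 to 50 nt past the start. A smaller change there need not mean a smaller relative fall in RML. The difference in change between distances was not tested.

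The 15 member 5′UTR sites in DRACH motifs were not alike. The 10 within 50 nt of the start had a median change of -0.83, and 7 of these were lower without overlap. The 5 farther away had a median of -0.05, with 1 lower without overlap. Over all genes the medians were -0.63 for 155 near DRACH sites (39.4% lower without overlap) and -0.01 for 872 far ones (6.54%). The 50 nt limit was chosen after the values were seen.

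**Figure D3:**
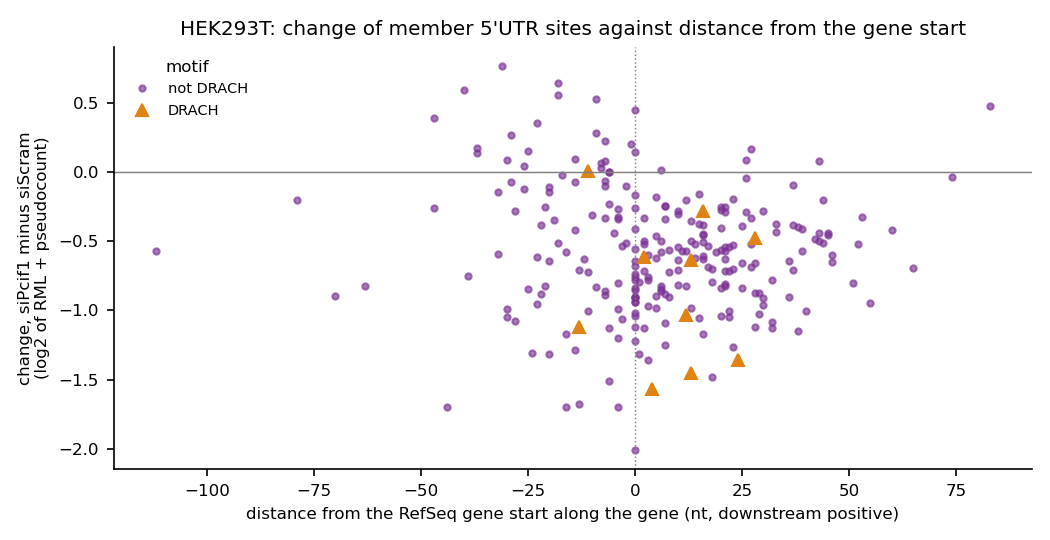
Change in HEK293T (siPcif1 minus siScram, log2 of RML plus pseudocount) of member 5′UTR sites against distance from the RefSeq start in nt, downstream positive, with DRACH sites as triangles. Sites beyond the plotted range on either side are not drawn. Sites on the start base have a median of -0.84 and those 1 to 100 nt upstream a median of -0.34.

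Some sites annotated as coding also had negative changes. NDUFA6, an accessory subunit of complex I with no listed 5′UTR site, had RML of 4.04, 4.04 and 9.49 in siPcif1 and 10.7, 9.87 and 8.55 in siScram at a coding-annotated A 10 nt from the RefSeq start (change -0.81). Its reads can also be placed on alternative chromosome 22 contigs, where 3 more HEK293T entries had changes of -0.87 to -0.39, so its level is uncertain. COX7A2, a liver-type subunit of complex IV also without a 5′UTR site, had 3 coding sites close together. The middle one, 6512 nt past the outermost RefSeq start, was a CCATT at position 75243786 of chromosome 6, with 3.46, 4.76 and 3.94 in siPcif1 and 7.05, 8.60 and 8.53 in siScram (change -0.95), without overlap. The other 2 differed by -0.61, without overlap, and by -1.18, with overlap. Of other internal sites, NDUFV3, an accessory subunit, had changes of opposite sign at 2 coding positions of chromosome 21. At 42903956 it had 1.68, 2.18 and 4.68 in siPcif1 and 0.327, 0.867 and 1.53 in siScram (change 1.40), without overlap, and at 42904042 the groups overlapped (change -1.14). UQCR10 in complex III differed by 0.35 and SDHC by 0.27 at 3′UTR sites, and ATP5D (ATP5F1D) by -0.46.

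Averaged per gene over its non-DRACH 5′UTR sites, and relative to the internal DRACH sites of each library, 76 of 78 HEK293T member genes were lower in siPcif1 (92.3% of all genes were). The 2 others were UQCRB in complex III (0.08) and SDHD (0.07). The median gene change was -0.61, against -0.74 over all 5069 genes, and 44 of 78 (56.4%) were lower without overlap, where 41.1% of all genes were so. No member gene was called by limma after adjustment, while 217 of the 5069 (4.28%) were. The closest were ATP5I (-0.91, limma adjusted p = 0.0504), NDUFV2 (-1.33, 0.0565) and CYC1 (-0.87, 0.0613). UQCRFS1 (-1.01, limma adjusted p = 0.0711) and SDHA (-1.0, 0.0737) followed. At an unadjusted p of at most 0.05, 24 member genes were lower and 0 higher (35.8% and 0.217% of all genes). ATP5I, COX6B1 and CYC1 each crossed the threshold under another pseudocount or choice of sites, as given with the processing alternatives.

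In BE(2)-C without ATRA, 9 member sites fell significantly and 0 rose (limma with Benjamini-Hochberg adjustment over 22855 sites), 3.91% of 230 members, where 3.69% of all sites were called lower and 0.0219% higher. In the 5′UTR 8 of 115 member sites were called, where 8.57% of all 5′UTR sites were, so members were near the background. NDUFS1 had RML of 1.32, 2.32 and 1.36 in siPcif1, against 2.04, 7.41 and 10.6 in siScram (change -1.51, limma adjusted p = 0.00564). NDUFAF2 had 3.18, 8.14 and 6.63 in siPcif1 and 3.26, 28.9 and 73.9 in siScram at a CCAGG site 59 nt upstream of its start (change -1.73). ATP5G1 had 1.59, 1.81 and 9.94 in siPcif1 and 4.35, 16.7 and 10.8 in siScram (change -1.41). In these 3 genes the groups overlapped, and siScram replicate 1 was the lowest siScram library in each.

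The other calls without ATRA were mostly better separated. NDUFAF4, another assembly factor, had RML of 1.41, 3.44 and 1.80 in siPcif1 and 4.15, 6.01 and 7.02 in siScram (change -1.24). NDUFB4 had 1.48, 4.75 and 1.88 in siPcif1 and 5.22, 8.53 and 5.91 in siScram, 30 nt upstream of its start (change -1.25). NDUFA1, a small membrane-arm subunit, fell by 1.21, ATP5E (ATP5F1E), the epsilon subunit, by 0.66, and NDUFB9, a membrane-arm subunit, by 0.48. The ninth call was the GTAGT coding site of COX7A2, with 1.37, 1.88 and 1.95 in siPcif1 and 3.34, 3.25 and 7.50 in siScram (change -1.13, limma adjusted p = 0.0408). Of these, NDUFAF4, NDUFB4, ATP5E, NDUFB9 and COX7A2 had no overlap between groups, and NDUFA1 did.

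**Figure D4:**
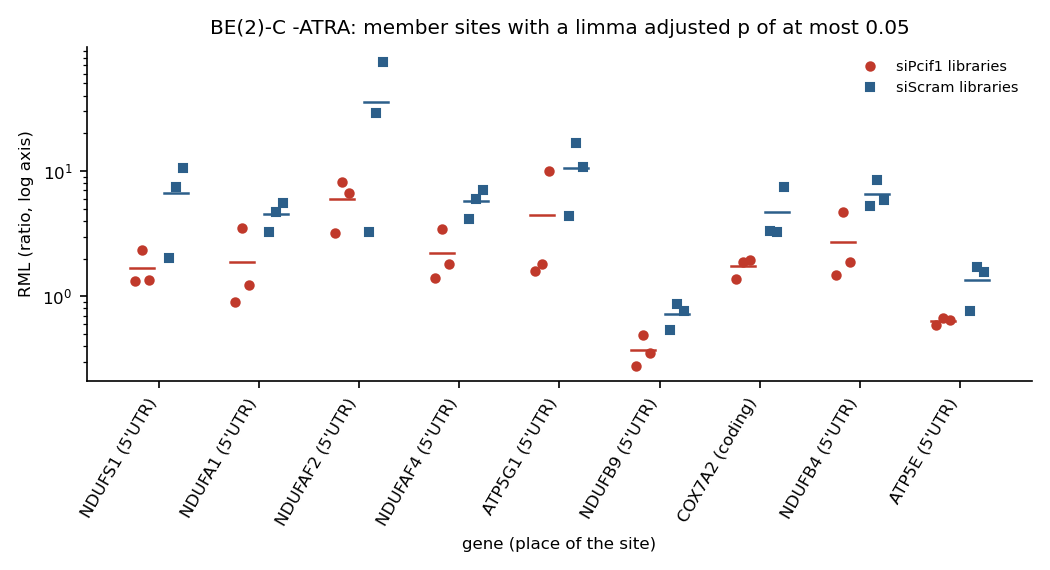
RML in each BE(2)-C library without ATRA (log axis) at the 9 member sites called lower, with siPcif1 circles left of siScram squares and bars at group means. In NDUFS1, NDUFAF2, NDUFA1 and ATP5G1 the lowest siScram point lies within the range of the siPcif1 points.

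These calls stood on a table in which nearly everything was lower in siPcif1. The 9 calls became 143 without siScram replicate 1, 3 without siPcif1 replicate 2, 1 without siPcif1 replicate 3, and 0 without any one of the other 3 libraries or without the variance trend of the fit. Of all sites, 95.6% had a negative change, the internal ones included. By the authors' deposited table, more 5′UTR and internal sites had a DESeq2 p of at most 0.05 in siScram than in siPcif1, as given below. The median RML of the 115 member 5′UTR sites was 2.33, 3.30 and 2.78 in siPcif1 and 3.38, 5.28 and 6.42 in siScram, with siScram replicate 1 the lowest of its group. The median change was -0.61 (-0.64 over all 5′UTR sites) and 46 of 115 sites did not overlap (40.0%, where 37% of all did). The 115 internal member sites had a median of -0.30 (-0.41 over all internal sites), and 33 did not overlap (28.7%, where 25.8% of all did). After each library was centred on its internal DRACH sites, the member medians were -0.10 in the 5′UTR and 0.21 at internal sites, and 0 member sites were called. The fit of this table took each site's variance almost wholly from the trend with level over all sites, so that a site's own replicate spread hardly entered its p. By gene and centred the same way, 56 member genes had a median change of -0.09 (-0.18 over all 1240), with 2 lower and 3 higher without overlap (14.9% and 3.79% of all genes) and 0 called by limma (0% of all genes), and 1 lower with an unadjusted p of at most 0.05 and 1 higher (11% and 1.94% of all).

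In BE(2)-C with ATRA, the library medians of member sites did not separate the groups. The median RML of the 103 member 5′UTR sites was 6.72, 5.39 and 5.79 in siPcif1, against 6.34, 8.54 and 5.54 in siScram, which overlapped. The median change was -0.07 (-0.06 over all 5′UTR sites), and 7 sites were lower without overlap (6.80%, where 9.03% of all were). At the 42 internal sites the median was 0.03, and 0 were lower or higher without overlap (0.801% and 4.79% of all internal sites). No member site was called by limma, nor any site of the table (0%). Of the 5′UTR members, 2 were lower with an unadjusted p of at most 0.05 and 2 higher (5.85% and 2.04% of all). The 2 lower sites were in complexes I and V, and the 2 higher in complex III and in the assembly factors. The lowest changes were -1.03 in complex V and -0.91 in complex IV. NDUFS4, which was not among those 2 higher sites, had 39.8, 54.9 and 25.5 in siPcif1 and 22.2, 31.9 and 16.7 in siScram (change 0.72). NDUFAF5, an assembly factor that hydroxylates a complex I subunit, had 6.72, 4.86 and 21.4 in siPcif1 and 4.23, 4.97 and 3.85 in siScram (change 0.93). Both overlapped, and in NDUFAF5 siPcif1 replicate 3 alone was high.

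Relative to the internal DRACH sites, 43 of 55 member genes with ATRA had a negative gene change (76.2% of all genes did), with a median of -0.25 (-0.27 over all 1234 genes). Lower without overlap were 15 (27.3%, where 22.8% of all genes were), and 1 was higher (2.19% of all). No member gene was called by limma, nor any gene (0%), and 6 were lower at an unadjusted p of at most 0.05 (16.6% of all). The smallest limma adjusted p was 0.124 for NDUFA11 (-0.78), a membrane-arm subunit of complex I, followed by 0.168 for ATP5C1 (ATP5F1C, -1.16), the gamma subunit that turns in the synthase. UQCRB, with 0.56, was the highest in complex III.

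Positions listed in all 3 tables allow the contexts to be read side by side. There were 89, of which 78 were 5′UTR sites in 47 genes and 11 were internal. The 5′UTR medians were -0.73 in HEK293T, -0.61 in BE(2)-C without ATRA and -0.09 with ATRA, and 74, 78 and 47 of the 78 changes were negative. After centring on internal DRACH sites the medians were -0.73 in HEK293T, -0.10 without ATRA and -0.22 with ATRA, so the order of the BE(2)-C contexts depended on the scaling. Uncentred, 48 of the 78 were lower without overlap in HEK293T, 31 without ATRA and 6 with ATRA, where 32.9%, 37% and 9.03% of all 5′UTR sites of those tables were. Those percentages cover every 5′UTR site of a table, not only positions listed in all 3, for which no share was computed. They are therefore not a like background for the 78. Of the 78 member positions, 23 were lower without overlap both in HEK293T and in BE(2)-C without ATRA. Over every 5′UTR site shared by those 2 tables, 29 of 103 member sites and 342 of 1605 in all were lower without overlap in both. Of the 78, only COX8A was so in all 3 contexts, and with ATRA its closest libraries had 2.99 and 3.01. Its changes were -1.12 in HEK293T, -0.74 without ATRA and -0.33 with ATRA. In the ATRA table COX8A had 2.99, 2.67 and 2.73 in siPcif1 and 3.49, 4.89 and 3.01 in siScram.

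**Figure D5:**
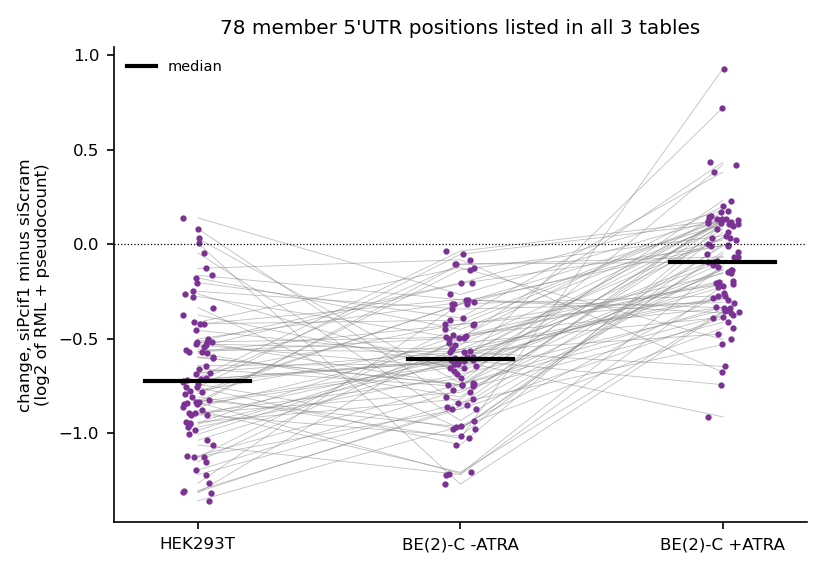
Change (siPcif1 minus siScram, log2 of RML plus pseudocount) of the 78 member 5′UTR positions listed in all 3 tables, by context; lines join a position and bars mark medians. The uncentred median is -0.73 in HEK293T, -0.61 in BE(2)-C without ATRA and -0.09 with ATRA; centred on internal DRACH sites it is -0.73, -0.10 and -0.22.

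The differences between contexts were tested site by site, and no member site passed the adjusted threshold, centred or not. Between HEK293T and BE(2)-C without ATRA, 0 of 121 shared member sites were called by limma (0% of 7106), with 5 more and 2 less positive in HEK293T at an unadjusted p of at most 0.05 (12.5% and 0.746% of all). With libraries centred on the median of all sites, these counts were 1 more and 23 less positive (293 and 402 of the 7106), and the median difference over the members was -0.37, against -0.01 uncentred. Between HEK293T and BE(2)-C with ATRA, 0 of 112 were called (0% of 7018), with 1 more and 14 less positive (0.755% and 6.44% of all), and 1 more and 4 less positive after centring. Between BE(2)-C with and without ATRA, 0 of 104 were called, where 7 of 7800 sites (0.0897%) were more positive with ATRA. Here 8 member sites were more and 0 less positive with ATRA at an unadjusted p of at most 0.05 (16.7% and 0.128% of all). Centring turned this direction, with 1 member site more and 10 less positive (228 and 857 of the 7800) and a median member difference of -0.19, against 0.45 uncentred. The smallest adjusted p-values here were those of SDHA, with a difference of 2.14 (limma adjusted p = 0.188), and NDUFAF5, with 1.96 (0.186). The SDHA site, at position 218320, had 19.1, 30.9 and 15.5 in siPcif1 and 11.6, 8.19 and 18.2 in siScram with ATRA (change 0.76), and its change without ATRA was -1.38. NDUFS1, whose site was called without ATRA, had the opposite sign in HEK293T.

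Other genes of the pathway were taken from a list of 53 nuclear assembly factors and electron carriers. In HEK293T 43 of them had 280 sites, with a 5′UTR median of -0.78 over 77 sites, of which 28 were lower without overlap, near the 32.9% of all 5′UTR sites, and 0 were called. In BE(2)-C without ATRA 9 of 201 sites fell and 0 rose, near the 3.69% called lower over all sites. They were 2 sites of FOXRED1 and 1 of TIMMDC1, both complex I assembly factors, then 3 of SDHAF1 and 1 each of SDHAF2 and SDHAF3, which serve complex II, and an intronic site of COQ4 in ubiquinone synthesis. The FOXRED1 changes were -2.72 and -2.45 and that of TIMMDC1 was -1.95. None remained called after centring on the internal DRACH sites (smallest limma adjusted p = 0.217). With ATRA 0 of 119 sites were called, and the 5′UTR median was 0.22 over 19 sites.

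Of the 13 mitochondrially encoded subunit genes, 10 had 53 sites in HEK293T, 10 had 52 in BE(2)-C without ATRA and 8 had 17 with ATRA, with 0 in the 5′UTR class. Their HEK293T levels were low, with a median RML of 0.174 in siPcif1 and 0.210 in siScram, and the median change was -0.07. Without ATRA the median change was 0.08 and 7 of 52 were negative, against 95.6% negative over all sites of that table. With ATRA the median change was -0.12 and 17 of 17 were negative, against 28.4% over all sites of that table. In HEK293T 41 of the 53 changes were negative. There 9 sites were lower and 0 higher without overlap, where 5.4% and 6.14% of all internal sites were so. None was called in any context. At an unadjusted p of at most 0.05 there were 3 lower and 0 higher in HEK293T (1211 and 1371 of all 39747 internal sites) and 0 in either BE(2)-C table. Median RML was 0.526 in siPcif1 and 0.474 in siScram without ATRA, and 0.752 and 0.974 with ATRA. These levels lie near the constants added to RML (0.502 and 0.857), which understates changes.

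The authors' deposited table also gives a DESeq2 p-value for each site in each condition. By the authors' deposited table, 83.7% of HEK293T member 5′UTR sites in siPcif1 and 96.9% in siScram had a p of at most 0.05, beside 59.0% and 97.4% of all 5′UTR sites. In the authors' deposited table without ATRA the shares were 67.0% in siPcif1 and 97.4% in siScram, beside 50.5% and 95.3% of all 5′UTR sites. In the authors' deposited table with ATRA they were 84.5% in siPcif1 and 81.6% in siScram, beside 78.5% and 73.1%. Over all internal sites of the authors' deposited tables, the shares without ATRA were 49.1% in siPcif1 and 90.5% in siScram (median change -0.41). With ATRA they were 81.8% and 58.5% (median change 0.14), and in HEK293T 74.0% and 88.3% (median change 0.01). Whether the choice of listed sites shaped the direction of the changes, or the 9 calls without ATRA, was not tested.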

How the data were processed

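Programs named per the submitters' processing notes, without role or order, are bcl2fastq 2.20, cutadapt 3.7, Bowtie2, STAR and DESeq2, with hg38 as the build. The deposited RML is a ratio per site and library computed by the authors. The sources used here do not say how inputs and scaling enter it. The deposited p-values and log2 changes of the authors' tables were used only where named. Regions and motifs are those of the deposited tables, and distances are to the outermost RefSeq start. Members and lists were chosen with earlier results of these data known.

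From the deposited RML, log2(RML + the table's 5th percentile) was fitted in R 4.3.3 with limma 3.58.1 (lmFit, eBayes with trend), siPcif1 minus siScram, with Benjamini-Hochberg adjustment over the whole table and a threshold of 0.05. The pseudocount was 0.298 for HEK293T, 0.502 without ATRA and 0.857 with ATRA. Fold changes of low sites are understated on this scale. Gene values are means over non-DRACH 5′UTR sites minus the library's internal DRACH median. Differences between contexts were fitted over shared sites. Sites were named per table and complex by the 3 smallest p in the 5′UTR (different genes), the highest siScram RML, the smallest internal p and any call, plus the largest 5′UTR increase and positions listed in all 3 tables. The other named sites (in HEK293T those of NDUFB10, NDUFA6, NDUFV3 and the stronger SDHA and CYC1 sites, with some COX7A2, NDUFAF2 and ATP5G1 sites) were chosen after their values were seen. Replicate numbers did not pair samples (correlations of same-numbered deviations between -0.309 and 0.116), so no block was used. In each simulation 100 sites were lowered, among 57011 in HEK293T, 22855 without ATRA and 21031 with ATRA. A fall of 2 on the log2 scale was recovered at 21% of the 100 in HEK293T, 78% without ATRA and 55% with ATRA. A fall of 1 was recovered at 0%, 16% and 0%. Far more than 100 sites had negative changes in the real tables, so recovery there can differ. The number of libraries limits the precision. Alternatives were other pseudocounts, centrings, site filters, leaving out each library, a replicate block and the deposited p.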

Additional observations from a re-analysis of the deposited data

How the results depend on the processing

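Of 351 counts and medians under alternative settings, 330 stayed within 1.5 times or within the spread. Most of these 330 were counts of 0 calls that stayed 0, so their number says little about stability. The 9 calls without ATRA changed in number under most settings. The exceptions follow. In HEK293T the 5′UTR median was -0.31 with the median RML as pseudocount and the internal median 0.15 after centring on all sites. ATP5I alone was called lower with the 1st percentile as pseudocount (1 gene, -1.09, limma adjusted p = 0.0485) and with sites within 100 nt of the start (1 gene, -0.91, limma adjusted p = 0.0486). COX6B1 (-1.29) and CYC1 (-1.27) were called with only sites in BCA, any base but A followed by CA (2 genes, limma adjusted p = 0.0486). In BE(2)-C without ATRA the 9 calls became 0 after either centring, without the variance trend and with the deposited p adjusted, and 26 with a replicate block, although the replicate numbers did not pair the samples. Its medians were -0.13 and -0.10 in the 5′UTR and 0.19 and 0.21 at internal sites, centred on all and on DRACH sites. Leaving out 1 library gave 0 to 143 calls there: 143 without siScram replicate 1, 3 and 1 without siPcif1 replicates 2 and 3, and 0 without any of the others. The cause was not tested. Between HEK293T and untreated BE(2)-C, leave-one-out gave 0 to 1 calls: a UQCRFS1 site (difference 0.90, limma adjusted p = 0.0432) was called without siScram replicate 1 of BE(2)-C.
Beyond this count the block ended no call. Leaving out the alternative-contig entries of NDUFA6, or internal sites within 100 nt of the start, both chosen after seeing the data, moved no count or median past these limits. Left-out libraries moved the HEK293T medians between -0.66 and -0.51 (5′UTR) and between -0.0016 and 0.07 (internal), those without ATRA between -0.78 and -0.44 and between -0.44 and -0.19, and those with ATRA between -0.17 and 0.07 and between -0.14 and 0.25.
Of 1252 values of 91 named sites and genes, 26 had the opposite sign. Without ATRA, the 2 centrings gave 0.0028 and 0.032 for NDUFB9, 0.35 and 0.38 for UQCRH (position 46303759), 0.12 and 0.14 for the coding site of ATP5F1 and, on DRACH sites only, 0.0052 for ATP5C1. The uncentred gene values were -0.25 for UQCRH (-0.15 with BCA sites) and -0.11 for ATP5A1. With ATRA, the centrings gave -0.095 and -0.069 for the UQCR11 start site and -0.043 and -0.016 for a coding site of ATP5B. Leaving out 1 library at a time gave ranges of -0.21 to 1.27 for NDUFA7 in HEK293T and -1.19 to 0.13 for UQCRH (46303661) without ATRA. With ATRA the ranges were -0.047 to 0.41 for a coding site of NDUFB10, -0.058 to 0.28 for UQCR11, -0.14 to 0.63 for UQCRH (46303751), -0.63 to 0.0051 for COX7A2, -0.063 to 0.31 for ATP5B and -0.44 to 0.052 for ATP5G3. The cause was not tested. The depth behind these values is unknown.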
